A study of Homo sapiens with 8 samples.

Results

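The genes described here are 4 disaccharidases (SI, LCT, MGAM and TREH), 4 facilitative sugar transporters of the SLC2 family (SLC2A1, SLC2A2, SLC2A3 and SLC2A5) and 2 sodium-coupled carriers of the SLC5 family (SLC5A1 and SLC5A4). These 10 genes were chosen by name from 22392 genes that had a probe set annotated to a single symbol, and each of the 10 was represented by exactly 1 such probe set. RNA came from Caco-2 cells, an established human colorectal adenocarcinoma line (HTB-37) that forms an enterocyte-like monolayer in long culture. All cells had the same seeding density of 75000 cells per cm2 and 21 days of culture. The methods name the same medium for both groups but mention its sodium bicarbonate only where the device is described. They do not say which cell passages each group came from. The Transwell group (n = 4) grew without flow on PET inserts, with the medium replaced every few days. The gut-on-chip group (n = 4) grew in a microfluidic device that perfused medium at 100 µL/h, which gave a shear stress of about 0.002 dyne/cm2. Each sample was measured on its own Affymetrix Human Gene 2.1 ST array. Flow, device, medium supply and lysis procedure differed together between the groups and cannot be told apart. The line is a single cancer-derived line without the other cell types of the gut wall, and the sources do not say whether the 4 samples of a group came from independent cultures. Each FDR therefore reflects the scatter among these 8 arrays alone, and that scatter may be technical.

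Dietary starch, sucrose and lactose must be split to monosaccharides before an enterocyte can take them up. Sucrase-isomaltase, maltase-glucoamylase, lactase and trehalase are anchored in the brush border and perform that last step. Glucose and galactose then enter across the apical membrane with sodium through SGLT1, the product of SLC5A1, while fructose enters through GLUT5, the product of SLC2A5. GLUT2, the product of SLC2A2, lets the sugars leave on the basolateral side. GLUT1 and GLUT3, from SLC2A1 and SLC2A3, serve basal glucose uptake in many cell types. SLC5A4 encodes SGLT3, which in human acts as a glucose sensor rather than a transporter. Sucrase-isomaltase is also a classical marker of Caco-2 differentiation.

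Promoter sequences are shown for the members whose upstream regions share the longest runs of bases. These pairs are SI with MGAM, both brush border glucosidases, and SLC5A1 with SLC5A4, both sodium-coupled carriers. Sequences come from RefSeq (GRCh38.p14), and 8 of the 10 genes (all but LCT and SLC2A3) matched its promoter table, which gives 1 start for each of them and for some other genes several. For SI, MGAM, SLC2A5 and SLC5A4 that start lies within the gene's annotated extent. The 250 bases before each start were searched, on both strands, for the longest run shared by each pair of members. The longest for SI and MGAM had 14 bases and lay at -173 to -160 in SI and at -144 to -131 in MGAM, counted from the base before the start. In these 35116 promoters of the same length, 2 held this run, SI and MGAM themselves. The run was chosen because both hold it, so a count of at least 2 was fixed by that choice. The count is therefore no test of a link between the run and these genes. Every pair of members shared a run of at least 7 bases. SI and SLC2A2 shared 11 bases, at -160 to -150 and at -159 to -149, a run found in 7 of the 35116 promoters. In the lines below, 200 bases upstream of the start of SI (chr3:165078497-165078696, minus strand) and of MGAM (chr7:141995679-141995878, plus strand) are given 5′ to 3′, with the shared run in capitals and, for SI, the letters TTTATG of the intestinal homeobox factor CDX2 in capitals too.
SI: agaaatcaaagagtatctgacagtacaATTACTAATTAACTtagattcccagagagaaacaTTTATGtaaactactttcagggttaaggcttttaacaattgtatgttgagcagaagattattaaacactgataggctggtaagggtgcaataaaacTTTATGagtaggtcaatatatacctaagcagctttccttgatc
MGAM: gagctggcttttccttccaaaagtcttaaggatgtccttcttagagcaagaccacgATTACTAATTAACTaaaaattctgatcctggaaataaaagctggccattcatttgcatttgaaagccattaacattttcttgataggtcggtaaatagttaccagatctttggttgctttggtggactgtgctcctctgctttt

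SLC5A1 and SLC5A4 also shared a run of 14 bases, which sat at the same distance from the start in both, at -52 to -39. It too was found in 2 of the 35116 promoters, these same members, a count with the same limit. The 100 bases upstream of SLC5A1 (chr22:32043161-32043260, plus strand) and of SLC5A4 (chr22:32255348-32255447, minus strand) follow, with the shared run in capitals. The matching stretch of SLC2A1 (chr1:42958869-42958968, minus strand) is added without capitals as that of the upregulated member.
SLC5A1: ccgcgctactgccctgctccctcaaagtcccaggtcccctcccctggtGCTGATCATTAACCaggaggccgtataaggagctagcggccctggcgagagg
SLC5A4: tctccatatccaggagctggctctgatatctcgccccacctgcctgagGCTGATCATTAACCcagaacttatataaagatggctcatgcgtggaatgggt
SLC2A1: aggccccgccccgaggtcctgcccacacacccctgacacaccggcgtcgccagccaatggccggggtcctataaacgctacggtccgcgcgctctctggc

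The same 250 bases were searched on both strands for short motifs. TTTATG was found in 1 of 8 members and in 9.64% of all promoters, and SI held it 3 times, at -236 to -231, -139 to -134 and -43 to -38. The TATA box letters TATAAA were found before SLC2A1, SLC2A5 and SLC5A4 and in 10.7% of all promoters. GGGCGG, the GC box of SP1, was found before SLC2A1 (at -123 to -118 and -95 to -90) and SLC5A1 and in 42.6% of all promoters. ACGTG, the core of the hypoxia response element, was found before TREH and in 18.5% of promoters, and the GATA letters AGATAA were found in no member and in 9.17% of promoters. The upstream regions also differed in base composition. SI had 31.6% G and C and SLC2A1 had 72.4%, against a median of 58% over all promoters. These are matches of letters and not measured binding sites, and the searched runs were not tested for a part in the changes described below.

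**Figure D1:**
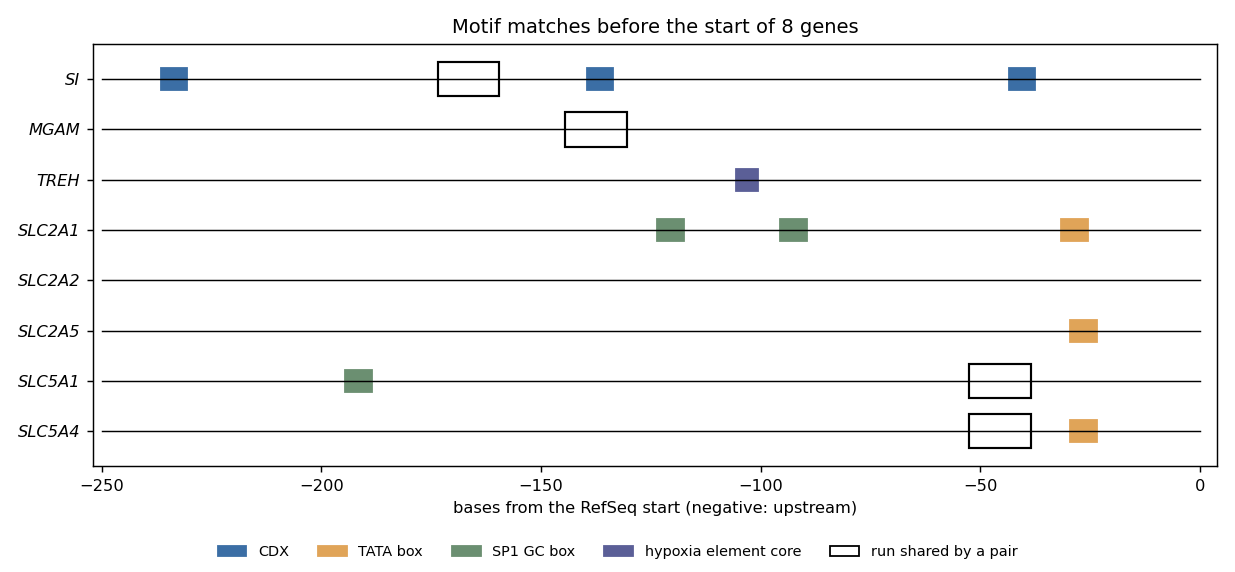
Motif matches in the 250 bases before the RefSeq start of 8 members, with the x axis giving the distance from the start in bases, coloured boxes the matches on either strand and open boxes the 14-base runs shared by SI with MGAM and by SLC5A1 with SLC5A4. The open boxes of SLC5A1 and SLC5A4 lie at the same distance from the start, and SI carries 3 CDX matches.

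Values are log2 levels as deposited by the authors after RMA. Compared to the Transwell inserts, the cells in the gut-on-chip had lower levels of 5 of the 10 genes and a higher level of 1 gene by the FDR threshold of 0.01, and the remaining 4 did not pass. Over all 53617 probe sets, 4.41% were downregulated and 5.16% were upregulated by the same rule, and of the 22392 genes with 1 symbol 7.06% and 8.72% were. The downregulated members were SI, MGAM, SLC2A2, SLC2A5 and SLC5A1, and the upregulated one was SLC2A1. All 4 gut-on-chip arrays lay below all 4 Transwell arrays for 7 members, where 9.58% of all probe sets and 13.6% of genes did, and above them for 2, where 10.7% of all probe sets and 17.0% of genes did. SLC5A4 was the only member whose groups overlapped. The median log2FC of the 10 genes was -1.15, and that of the 22392 genes was 0.01. Since the arrays measured RNA of whole monolayers, fewer cells expressing a gene and less RNA per cell cannot be told apart.

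**Figure D2:**
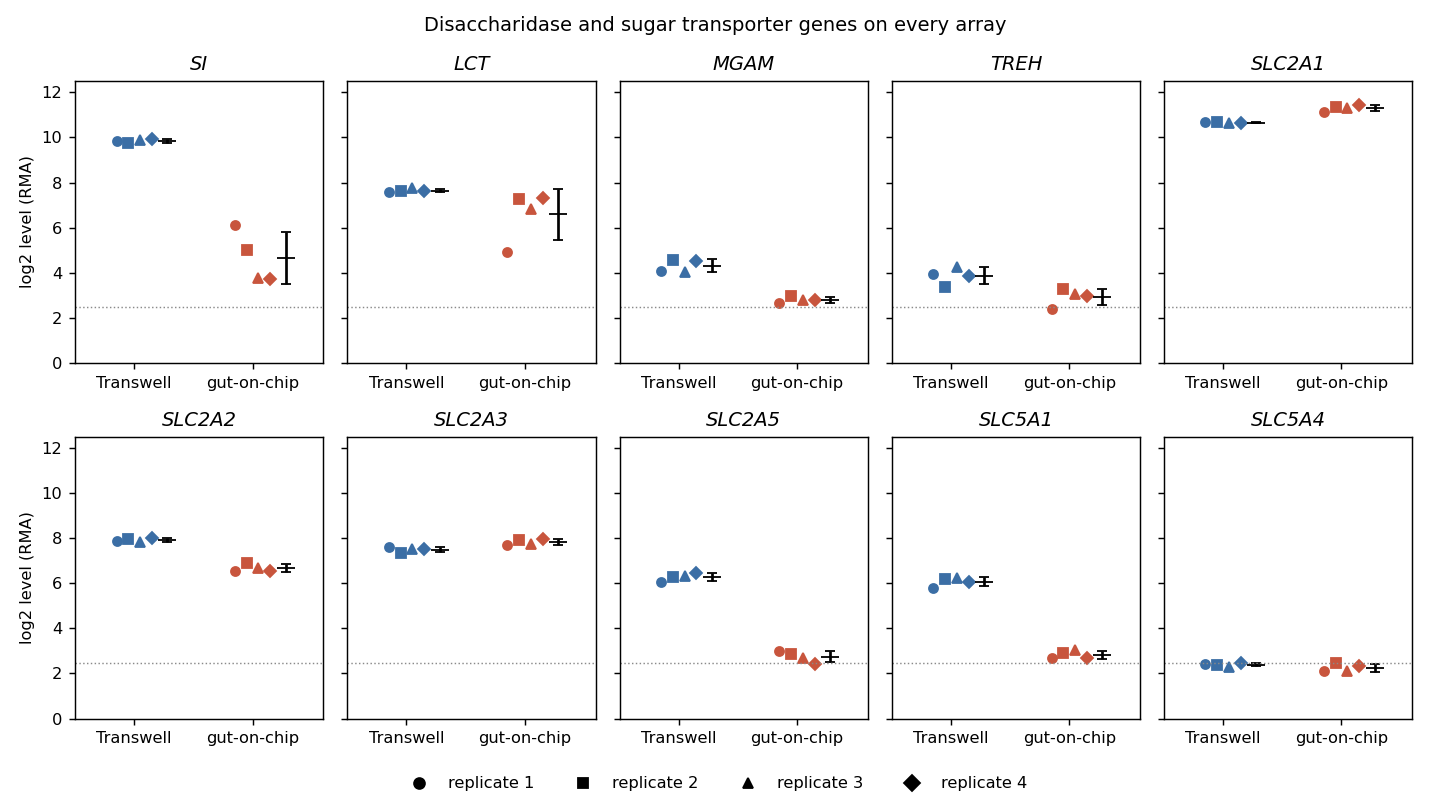
Log2 level (RMA) of each member on every array, with 1 point per array, marker shapes for the replicate number, black bars for the group mean ± SD (n = 4) and a dotted line at the mean of the Transwell array medians. In the gut-on-chip, SLC2A5, SLC5A1 and MGAM sit close to the dotted line, SI and LCT are widely spread, and SLC2A1 lies above its Transwell points.

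SI encodes sucrase-isomaltase, which splits sucrose and the branch points of starch. Its level in the Transwell inserts was 9.86, 9.74, 9.90 and 9.93 in replicates 1 to 4, a range of 0.19. In the gut-on-chip it was 6.12, 5.01, 3.77 and 3.73, a range of 2.39. The groups were separated by a gap of 3.62 between the lowest Transwell and the highest gut-on-chip array. The log2FC was -5.20 (SE 0.45, 95% interval -6.21 to -4.20, FDR = 4.02e-05), a 36.8-fold lower level with an interval of 18.3 to 73.9. Of the 22392 genes, 2 had a more negative log2FC. The drop was thus large on every chip but not of one size, since replicates 3 and 4 lay more than 1 log2 unit below the other two. With an SD of 1.14 in the gut-on-chip, SI was more variable there than all but 14 of the genes.

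LCT encodes lactase, the enzyme of milk sugar digestion. Its levels in the Transwell inserts were 7.58, 7.61, 7.74 and 7.62. In the gut-on-chip they were 4.91, 7.26, 6.83 and 7.34. Every gut-on-chip array was lower than every Transwell array, by a gap of 0.24, yet replicate 1 lay far below the other 3. The log2FC of -1.05 (SE 0.45) had an FDR of 0.171 and did not pass the test. LCT did not pass when gut-on-chip replicate 1 was left out either, with a log2FC of -0.49 and an FDR of 0.0275. The SD of LCT in the gut-on-chip was 1.14, exceeded by 15 genes, against 0.07 in the Transwell inserts.

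SI and LCT deviated in opposite directions on the same array. In gut-on-chip replicate 1, SI was 1.95 log2 units above the mean of the other gut-on-chip arrays, and 1 of the 22392 genes, RN5S150, lay further above. LCT was 2.23 units below that mean, and 4 genes lay further below, namely DHRS2, TRBJ2-6, CCDC13-AS2 and ULBP1, which were named after their values were seen. The other members differed by less in this array, from -0.70 for TREH to 0.32 for SLC2A5. Over all genes this array was the furthest from its group, though by little in the root mean square difference from the other 3 arrays. That was 0.319, where gut-on-chip replicates 2 to 4 had 0.292 to 0.315 and the Transwell arrays had 0.275 to 0.283. It also had the most genes more than 1 log2 unit from the other arrays of its group, 251. Gut-on-chip replicates 2 to 4 had 228, 163 and 163 such genes, and the Transwell arrays had 121 to 170. What set SI and LCT apart in that culture was not tested.

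**Figure D3:**
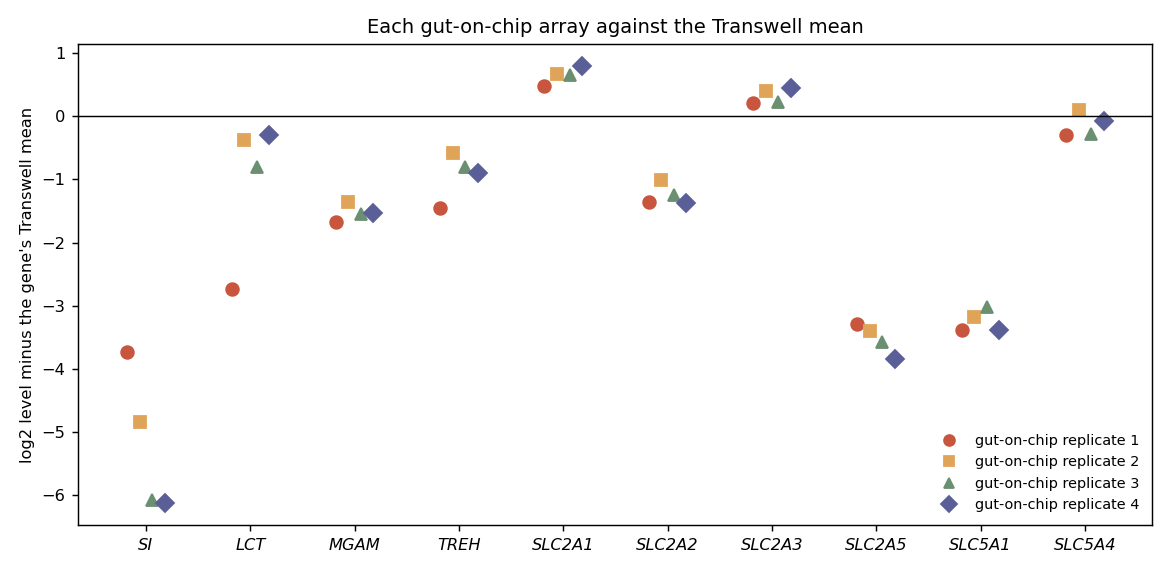
Log2 level of each gut-on-chip array minus the Transwell mean of the same gene, for the 10 members, with 1 marker shape and colour per replicate and a line at 0. Replicate 1 has the highest point of SI and the lowest of LCT and TREH, and SLC2A5 and SLC5A1 lie at least 3 log2 units below 0 on every array.

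MGAM encodes maltase-glucoamylase, which releases glucose from maltose and short starch chains. The Transwell levels were 4.10, 4.59, 4.04 and 4.54, and the gut-on-chip levels were 2.64, 2.97, 2.77 and 2.79. The groups did not overlap, and the gut-on-chip levels lay 0.32 above the mean of the array medians. The log2FC was -1.53 (SE 0.18, FDR = 3.27e-04). The paralogue MGAM2, whose sequence resembles that of MGAM so that probes could be shared, fell from 6.49 ± 0.08 to 3.73 ± 0.43 (SD, n = 4 each, log2FC = -2.76, FDR = 1.35e-05). TREH, the trehalase gene, had levels of 3.97, 3.37, 4.27 and 3.84 in the Transwell inserts and of 2.41, 3.28, 3.06 and 2.96 in the gut-on-chip. The groups were separated by only 0.09, and the log2FC of -0.93 (SE 0.25, FDR = 0.0288) did not pass. The gut-on-chip mean of TREH lay 0.45 above the mean array median, with replicate 1 below it. The size of this difference is therefore limited by background as well. When only probe sets with 1 symbol were fitted and adjusted, the FDR of TREH was 0.00792.

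SLC5A1, which encodes the sodium-glucose cotransporter SGLT1, had Transwell levels of 5.81, 6.17, 6.23 and 6.08 and gut-on-chip levels of 2.69, 2.89, 3.06 and 2.69. The arrays of each group lay close together and far from those of the other, with a gap of 2.75. The log2FC was -3.24 (SE 0.15, FDR = 1.37e-06), a 9.46-fold lower level with a 95% interval of 7.45 to 12.0. SLC5A4, also on chromosome 22 and the gene with the shared promoter run, had levels of 2.42, 2.37, 2.29 and 2.45 in the Transwell inserts and of 2.09, 2.48, 2.11 and 2.31 in the gut-on-chip. These overlapped, and the means of both groups lay below the mean array median. The log2FC of SLC5A4 was -0.14 with a 95% interval of -0.46 to 0.18 (FDR = 0.643). The deposited values carry no detection calls, so a level of SLC5A4 this low cannot be told from background.

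SLC2A5, the gene of the fructose transporter GLUT5, fell on every array. The Transwell levels were 6.06, 6.28, 6.33 and 6.44, and the gut-on-chip levels were 2.99, 2.87, 2.71 and 2.43, which placed them near the array medians. The log2FC was -3.53 (SE 0.16, FDR = 1.26e-06), an 11.5-fold lower level with an interval of 8.97 to 14.8. For SLC2A5, SLC5A1 and MGAM the gut-on-chip means were only 0.27, 0.35 and 0.32 above the mean array median, so the size of these decreases is limited by the background of the arrays. SLC2A2, which encodes GLUT2, had Transwell levels of 7.86, 7.96, 7.82 and 8.01 and gut-on-chip levels of 6.55, 6.90, 6.67 and 6.54. Its decrease was smaller (log2FC = -1.25, SE 0.10, FDR = 2.16e-05, 2.37-fold lower), and it remained 4.19 above the mean array median in the gut-on-chip.

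SLC2A1, the gene of the glucose transporter GLUT1, was the upregulated member. Its levels in the Transwell inserts were 10.69, 10.68, 10.64 and 10.63, and those in the gut-on-chip were 11.13, 11.33, 11.31 and 11.46. All gut-on-chip arrays were higher, by a gap of 0.45, and the change was modest in size (log2FC = 0.65, SE 0.07, FDR = 1.34e-04, 1.57-fold). For SLC2A3, which encodes GLUT3, the Transwell levels were 7.60, 7.35, 7.53 and 7.51 and the gut-on-chip levels were 7.70, 7.90, 7.72 and 7.94. Here too every gut-on-chip array was higher, by a gap of 0.10, but the log2FC of 0.32 (SE 0.09, FDR = 0.0338) did not pass. SLC2A14 is a near-identical duplicate of SLC2A3 and may share its probes, and it had a log2FC of -0.65 that did not pass (FDR = 0.0685), though it passed when Transwell replicate 1 was left out (log2FC = -0.85, FDR = 0.00627).

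**Figure D4:**
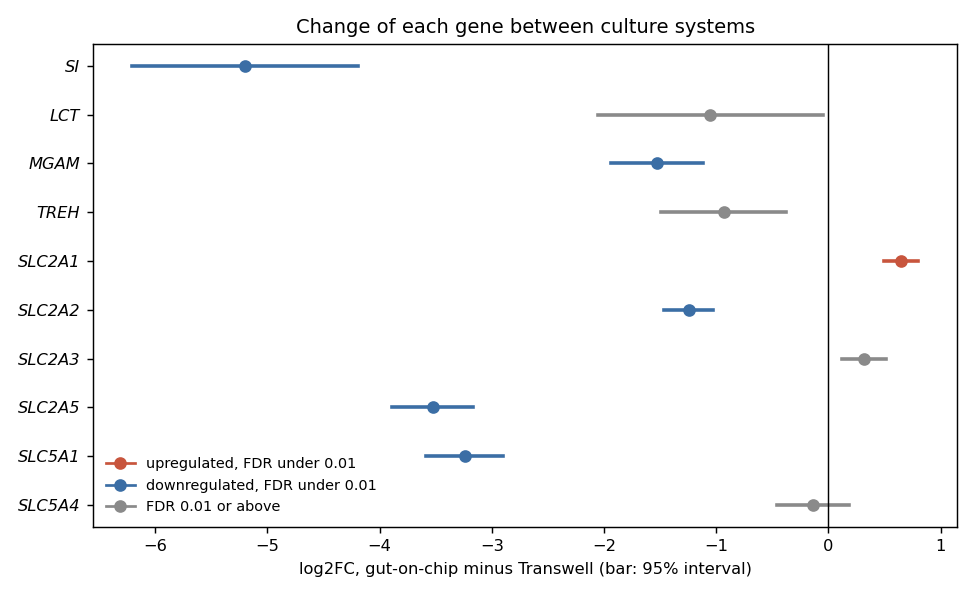
Log2FC of each member, gut-on-chip minus Transwell, with points for the estimate, bars for the 95% interval of the moderated fit before adjustment for multiple testing, and colours for the call at an FDR under 0.01. SI, SLC2A5 and SLC5A1 show the largest decreases of the members, at -5.20, -3.53 and -3.24, and SLC2A1 at 0.65 is the one increase that passed.

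The profiles of the called members over the 8 arrays were compared with those of all other named genes by the root mean square difference of levels centred on each gene's mean. This describes likeness only, and arrays of the same group dominate it. SLC2A5 was nearest to SLC5A9 (0.167), a sodium-coupled carrier of mannose and other sugars, to the flavin monooxygenase gene FMO5 (0.171) and to SLC2A7 (0.191), another hexose transporter gene. For SLC5A1 the nearest genes were SLC10A2, the ileal bile acid transporter (0.165), TTC36 (0.167) and GRAMD1B (0.167). Among the members themselves, SLC2A5 and SLC5A1 differed from each other by 0.242, MGAM and SLC2A2 by 0.193 and SLC2A1 and SLC2A3 by 0.184. SI had no close match. Its nearest genes were S100G (0.606), MTTP (0.701), C17orf78 (0.725), AOC4P (0.727) and TM4SF20 (0.792), none of which had the spread of SI over the chips. S100G, for example, had gut-on-chip levels of 2.39, 3.07, 2.21 and 1.84. The nearest genes were DIPK1B, ANO1 and LINGO3 for MGAM (0.103 to 0.139), SLC36A1, ETFDH and F10 for SLC2A2 (0.0820 to 0.0883) and TMEM43, NQO1 and SLC7A4 for SLC2A1 (0.0399 to 0.0448).

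Other genes of sugar digestion and uptake were read from lists of 73 genes, of which 54 were measured by a probe set with 1 symbol and 19 were not analysed here. Of the 54, 14 were downregulated, 4 were upregulated and 36 did not pass, with a median log2FC of -0.03. Over the 22392 genes, 7.06% were downregulated and 8.72% were upregulated. Against these shares, decreases were frequent among the 54 genes and increases were not. The same shares are the reference for the counts of single lists below. Of the 54, 12 lay on average below the highest array median, where a decrease could be missed. In the rest of the SLC2 family, 2 of 10 measured genes were downregulated, 1 was upregulated and 7 did not pass. SLC2A7 fell from 6.35 ± 0.07 to 2.62 ± 0.07 (SD, n = 4 each, log2FC = -3.73, FDR = 2.24e-07), a decrease whose size is limited by background as well, since its gut-on-chip level lay close to the array medians. SLC2A13, a myo-inositol carrier gene, had a log2FC of -1.13 (FDR = 6.14e-04). SLC2A10 was upregulated (log2FC = 0.69, FDR = 0.00392), but the call was lost with the replicate block (FDR = 0.0214) and when any Transwell array or gut-on-chip replicate 2 or 4 was left out (FDR = 0.0114 to 0.0152). SLC2A8 had a log2FC of 0.03 (FDR = 0.902).

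In the rest of the SLC5 family, 4 of 9 measured genes were downregulated, none was upregulated and 5 did not pass. Of these 5, 3 lay on average below the highest array median, where a decrease could be missed. The 4 downregulated genes were SLC5A9 (log2FC = -3.33), the lactate carrier gene SLC5A12 (-2.61), the inositol carrier gene SLC5A11 (-2.49) and SLC5A2, which encodes the renal glucose cotransporter SGLT2 (-1.27). Each of the 4 had an FDR under 0.01, and the brightest member that did not pass was the vitamin carrier gene SLC5A6 (log2FC = -0.07, FDR = 0.787). SLC5A9 showed a gut-on-chip level of 4.78 ± 0.30 against 8.12 ± 0.06 in the Transwell inserts (SD, n = 4 each). Of 5 measured glycoside hydrolase genes, MGAM2 was the 1 downregulated and 4 did not pass, among them GANAB, which trims glucose from glycoproteins in the endoplasmic reticulum (log2FC = 0.07, FDR = 0.583).

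SGLT1 depends on the sodium pump. Of 4 measured pump genes, the beta subunit gene ATP1B1 was downregulated (log2FC = -1.26, FDR = 2.24e-05) and 3 did not pass. Among 10 measured genes of sugar phosphorylation and glucose release, 2 rose, 4 fell and 4 did not pass. The hexokinase genes HK1 (log2FC = 1.23, FDR = 6.98e-05) and HKDC1 (log2FC = 1.14, FDR = 5.47e-04) rose, while ketohexokinase, KHK, which phosphorylates fructose (-1.65), the glucose-6-phosphate transporter gene SLC37A4 (-1.28), GALK1 (-0.78) and the glucose-6-phosphatase gene G6PC1 (-6.99) fell, each with an FDR under 0.01. G6PC3, the brightest of those that did not pass, had a log2FC of 0.43 (FDR = 0.0214). It passed when only probe sets with 1 symbol were fitted and when gut-on-chip replicate 1 was left out. None of 5 sweet taste genes passed, and 4 of them lay on average below the highest array median, the exception being the taste receptor gene TAS1R3 (log2FC = 0.03, FDR = 0.948).

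Among 11 measured regulators, 2 were downregulated, 1 was upregulated and 8 did not pass. CDX2, which is known to act on the SI promoter, went from 8.30 ± 0.08 to 7.77 ± 0.17 (SD, n = 4 each, log2FC = -0.53, FDR = 0.00342), but the call was lost with limma without a trend (FDR = 0.0144) and when Transwell replicate 2, 3 or 4 or gut-on-chip replicate 4 was left out (FDR = 0.0106 to 0.0145). MLXIPL, the gene of the carbohydrate response factor ChREBP, was downregulated (log2FC = -1.39, FDR = 5.36e-05), and TXNIP, whose product restrains glucose uptake, was upregulated (log2FC = 0.78, FDR = 5.56e-05). SP1, the brightest regulator that did not pass, had a log2FC of -0.33 (FDR = 0.0354), with every gut-on-chip array below every Transwell array. GATA6 had a log2FC of -0.14 (FDR = 0.240).

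**Figure D5:**
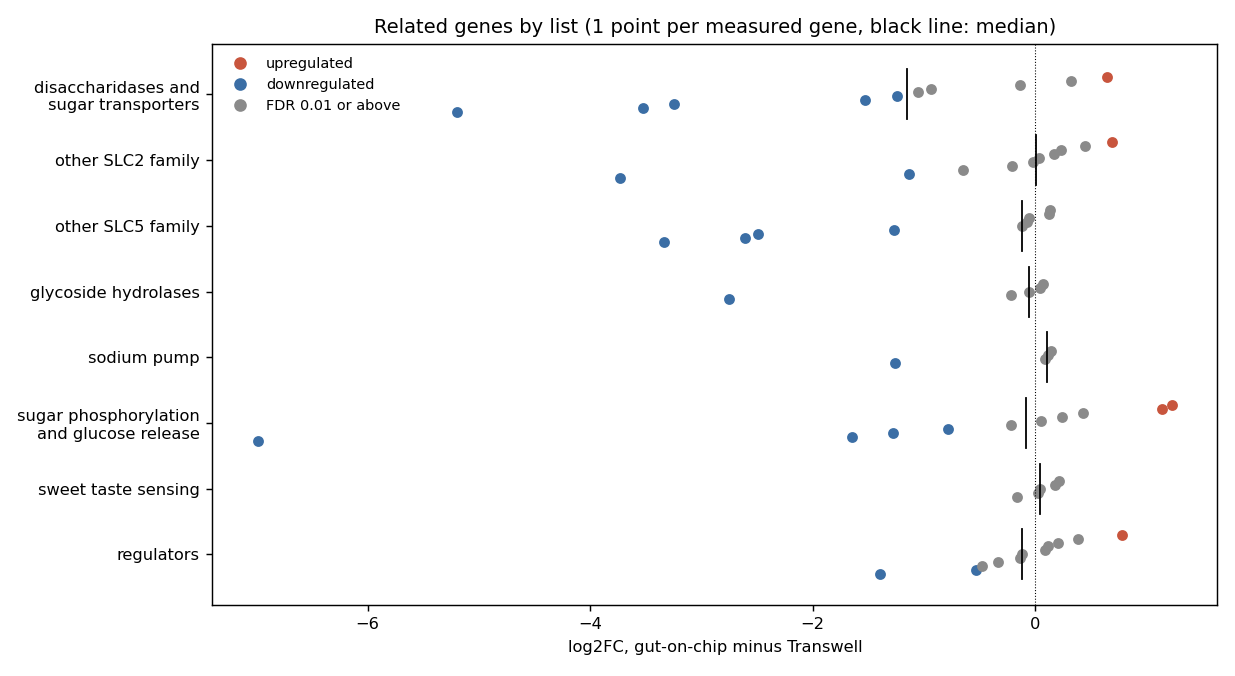
Log2FC of the members and of the measured genes of 7 related lists, with 1 point per gene coloured by its call at an FDR under 0.01 and a black line at each list's median. The members have a median of -1.15, while the medians of the other lists lie between -0.12 and 0.10 although each list except sweet taste sensing holds at least 1 downregulated gene.

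Markers of the enterocyte and of other cell types were read beside the sugar genes. Of 10 enterocyte markers, 9 were downregulated and 1, KRT20, did not pass (log2FC = 0.66, FDR = 0.0264), and the mean level of the list was 9.25 to 9.34 on the Transwell arrays and 7.97 to 8.34 on the gut-on-chip arrays. The largest decrease among them was that of the fatty acid binding protein gene FABP2 (log2FC = -3.34), which lay at 2.09 ± 0.64 in the gut-on-chip (SD, n = 4), a mean below the array medians. Of 7 colonocyte markers, CEACAM7 was upregulated (log2FC = 2.14), SLC26A3 was downregulated (-1.66) and 5 did not pass, and the mean level was 4.97 to 5.11 on the Transwell arrays and 4.70 to 5.29 on the gut-on-chip arrays. Of the 5 that did not pass, 2 lay on average below the highest array median. Of 6 goblet cell markers, ZG16 was downregulated (-3.01) and 5 did not pass, with the means of CLCA1, SPINK4 and FCGBP in both groups below the array medians and MUC2 at 2.60 ± 0.25 and 2.82 ± 0.18 (SD, n = 4 each). The mean level of the goblet list was 3.92 to 4.19 on the Transwell arrays and 3.22 to 3.58 on the gut-on-chip arrays. That mean is weighted by ZG16, and the median log2FC of the list was -0.11. TFF3, the brightest goblet marker that did not pass, had a log2FC of -0.76 (FDR = 0.0640), and SPINK4 had -0.24. MUC2, CLCA1 and FCGBP had 0.22, 0.03 and 0.03. Of 4 stem and progenitor markers, LGR5 was downregulated (-1.68) and 3 did not pass, 1 of them on average below the highest array median. None of 4 enteroendocrine and 2 Paneth cell markers passed, and the immune marker PTPRC lay at 1.51 ± 0.15 and 1.35 ± 0.06 (SD, n = 4 each), below the array medians. The 2 Paneth markers and 1 enteroendocrine marker lay on average below the highest array median. In all such dim markers a decrease could be missed. The part of the marker changes in those of the sugar genes was not tested.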

How the data were processed

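Total RNA of 8 samples, 4 per culture system, was hybridised to Affymetrix Human Gene 2.1 ST arrays. The deposited log2 levels were made by the authors with RMA (version not given in the sources used here), which corrected background, normalized quantiles between arrays and summarised probes. The methods describe a custom definition of genes, whereas the deposited table has 53617 probe sets under manufacturer IDs, of which 23866 had 1 symbol, 1852 several and 27899 none in the platform annotation. Where a gene had several probe sets, the brightest on average was used. All 53617 probe sets were fitted with limma 3.58.1 in R 4.3.3, without a block, with an intensity-based moderated statistic (loess span 0.3, 3.88 prior and 6 residual degrees of freedom), two-sided, adjusted by Benjamini-Hochberg with a threshold of 0.01. Scripts were tested on simulated data. The deposited values carry no detection calls. Dim probe sets, with levels around the array medians (2.46 to 2.49), stayed in, and the number of arrays limits precision. Members and lists were chosen with earlier results of these data known, and motifs and shared promoter runs after the data were seen. In the lists, up to 3 of the largest changes each way were named, and for most lists the brightest gene that did not pass, with values. The brightest such genes of the other lists were FXYD3, GUCA2A, PYY, ASCL2 and DEFA5, given without values. SLC5A2, SLC2A14, GALK1, GATA6, MUC2, CLCA1, SPINK4 and FCGBP were named too, fall outside that rule and were chosen after their values were seen. Alternatives were other moderation, normalization, filters, weighted arrays, replicate number as a block, omission of single arrays and an FDR under 0.05.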

Additional observations from a re-analysis of the deposited data

Results flagged for a closer look

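In gut-on-chip replicate 2, SLC2A7 had a level of 2.73, whereas the other gut-on-chip arrays had 2.58 to 2.58, so that the gap made up most of the range of this group. SLC2A7 lay between 6.28 and 6.44 on the Transwell arrays. This was the only such sample found among 66 groups of 4 arrays, for 33 genes, and chance alone gives about 1 in 20. No member showed a sample this far from its group by the same measure, including LCT in gut-on-chip replicate 1.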

How the results depend on the processing

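The 5 downregulated members and the upregulated SLC2A1 kept their calls under each alternative that was run, including each array left out in turn, with log2FC values of -5.69 to -4.89 for SI and 0.60 to 0.71 for SLC2A1. No member changed sign. Fitting and adjusting only probe sets with 1 symbol, which changed both the moderated variance and the number of tests, added TREH. At an FDR under 0.05, 2 members were upregulated and 6 downregulated, with SLC2A3 and TREH added, and 4510 probe sets were upregulated and 3749 downregulated in all. With replicate number as a block (replicate block), 1764 probe sets were upregulated, against 2765 without it, for which the cause was not tested, and no member changed its call. Same-numbered arrays did not deviate together (r from -0.04 to 0.003 over probe sets), so the numbers were not taken as pairs. Averaging probe sets and testing other probe sets of a member could not be run, as each member has 1.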
